A study of Mus musculus with 6 samples.

Results

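The cytosolic ribosomal protein genes encode the protein parts of the ribosome that works in the cytosol. They were picked by symbol: genes whose mouse symbol starts with Rpl (large subunit) or Rps (small subunit) followed by a digit or the letter a. Symbols ending in -ps, the S6 kinases, Rps19bp1 and paralogs ending in l were left out. Of 398 symbols with such a start, 78 remained among the 55471 genes of the table, 44 of the large and 34 of the small subunit. A filter on low values kept 77 of the 78 among 19416 genes tested, and Rps3a3 fell just below it. The set holds 75 genes annotated as protein coding and 3 annotated as pseudogenes (Rps3a2, Rps3a3 and Rpl37rt). By its symbol, Rps27rt was counted with these 3 as a copy of another member. The symbol rule leaves out the P-stalk genes Rplp0, Rplp1 and Rplp2, and the fusion gene Fau, which were read beside the members.

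The study sorted L1CAM+ tuft cells, a chemosensory epithelial cell type of the thymic medulla, from mice in which both Ikzf1 alleles are floxed. The labels' WT group is Foxn1-Cre(-) Ikzf1fl/fl and the KO group is Foxn1-Cre(+) Ikzf1fl/fl, with 3 samples each and no age or sex used here. Foxn1-Cre acts in thymic epithelium from early in its development, so the recombination is not limited to tuft cells, and Ikzf1 encodes the zinc finger factor Ikaros. The libraries were made from total RNA of cells sorted into SMART-seq lysis buffer. The value columns are named Het and Ko. Ko was taken as the KO group and Het as the WT group by elimination, and no column could be tied to a single sample.

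The 6 libraries held 12238400 to 31435800 reads. The targeted gene went against its label at the level of the whole gene. Ikzf1 stood at 301, 187 and 273 normalized counts in Het1 to Het3 and at 1572, 1463 and 1717 in Ko1 to Ko3. These counts cover the whole gene and do not separate the floxed exons. Every direction below is therefore between the libraries labelled Het and the libraries labelled Ko. The labels do not say whether the samples came from separate animals, so the p-values measure the spread between these 6 libraries. Tuft markers were abundant throughout, with none of 20 at 0 in any library, and together took 0.998 to 1.38% of reads in Het and 1.46 to 1.76% in Ko. The sum is uneven, with 17 markers above 0 in fold change and 3 below. Rgs13 had means of 32005 in Het and 81568 in Ko, and Avil 16844 and 16966. Gng13 (27673 and 17173) and Gnb3 (11988 and 5274) were lower in Ko. In these bulk samples, fewer cells of a type and less RNA per cell cannot be told apart.

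A ribosome is assembled from ribosomal RNA and one copy of most of these proteins, so the cell makes the proteins of both subunits in matched amounts. Their mRNAs are short and abundant, and most begin with a tract of pyrimidines, the TOP motif. Through it the LARP1 protein and the mTOR kinase control their translation in response to nutrients. Several of the genes also carry small nucleolar RNAs (snoRNAs) in their introns, which guide the modification of ribosomal RNA.

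The stretch around the transcription start is shown for 8 members, because the start is where such a tract lies. These 8 differ in fold change, from 0.08 to 0.50 on the log2 scale. By the search described below, 35 of the 57 members with a RefSeq window held a tract at the start. The 8 are examples and do not stand for the family. Each is 60 bases long, with 40 bases before the start that RefSeq's table annotates and 20 bases from it on (GRCm38.p6, whereas the authors aligned to GRCm39). All are written on the transcript's strand. Capitals mark at least 6 C or T bases in a row, from the C that lies nearest the annotated start and within 15 bases of it. C or T bases of the same run that lie before this C are left in small letters. Members without an entry in that table, such as Rpl32, are not shown.
Rpl27a, chr7:109519155-109519214, plus strand: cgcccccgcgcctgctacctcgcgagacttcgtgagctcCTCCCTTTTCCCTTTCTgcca
Rps18, chr17:33955646-33955705, minus strand: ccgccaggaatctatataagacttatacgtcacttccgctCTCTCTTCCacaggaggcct
Rps6, chr4:86857348-86857407, minus strand: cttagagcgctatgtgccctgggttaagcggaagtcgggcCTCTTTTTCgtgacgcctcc
Rpl38, chr11:114668540-114668599, plus strand: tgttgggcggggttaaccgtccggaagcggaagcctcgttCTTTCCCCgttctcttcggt
Rps27, chr3:90213629-90213688, minus strand: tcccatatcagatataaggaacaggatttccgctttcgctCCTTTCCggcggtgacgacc
Rpl15, chr14:18270967-18271026, minus strand: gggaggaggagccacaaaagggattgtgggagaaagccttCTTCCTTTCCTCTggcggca
Rps4x, chrX:102189372-102189431, minus strand: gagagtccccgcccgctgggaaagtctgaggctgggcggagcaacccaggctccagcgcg
Rpl10, chrX:74270776-74270835, plus strand: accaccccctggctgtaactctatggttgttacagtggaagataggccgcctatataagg
In the first 6 the capitals begin at or next to the annotated start, which the choice of the nearest C favours. In each of them the run of C and T bases itself begins further upstream, in small letters. Rps4x and Rpl10 have no run of at least 6 within 15 bases of the annotated start, although Rpl10 has one further upstream. They lie near opposite ends of the fold changes given below, Rps4x at 0.50 and Rpl10 at 0.08 on the log2 scale.

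RefSeq windows were found for 57 of the 78 members, 67 windows in all because some genes have several starts. A tract stood at the start in 55.2% of the members' windows and in 26.3% of all 32851 windows of the table. The ETS core CCGGAA, searched on both strands over the full 300 bases (250 before and 50 after the start), was in 49.3% of the members' windows and in 14.9% of all. The letters AAGATGGC, part of the YY1 motif, were in 10.4% against 2.75%. The TATA box letters TATAAA were in 7.46% against 13.6%, and TGGGAA, the core letters of Ikaros sites, in 20.9% against 25.6%. The ETS core was not particular to the members. It was in 49.2% of windows of ribosome biogenesis genes, 57.3% of mitochondrial ribosomal proteins and 31.3% of snoRNA host genes. AAGATGGC was in 4.92, 16 and 0% of these, and a tract stood at the start in 21.3, 32 and 43.8%. The members with a tract had a median log2 fold change of 0.33 (n = 35), and those with a window but no tract had 0.34 (n = 22). The difference between these medians was not tested. A tract that runs into GG shares letters with TTCCGG, the reverse complement of the ETS core, and a match is a description of letters, not a binding site.

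In the libraries labelled Ko, more of the reads came from ribosomal protein genes than in those labelled Het. Together the 78 genes held 2.41, 2.41 and 2.38% of reads in Het1 to Het3, and 3.05, 3.18 and 2.96% in Ko1 to Ko3. The groups did not overlap, and the means were 2.40% ± 0.0199 (SD, n = 3) and 3.06% ± 0.113 (SD, n = 3), a ratio of 1.28. Both subunits showed the same picture. Large subunit genes held 1.27, 1.23 and 1.22% of reads in Het and 1.58, 1.64 and 1.54% in Ko. Small subunit genes held 1.15, 1.17 and 1.16% in Het and 1.47, 1.55 and 1.42% in Ko. No test was made of these shares, since they sum over genes chosen with earlier results known.

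**Figure D1:**
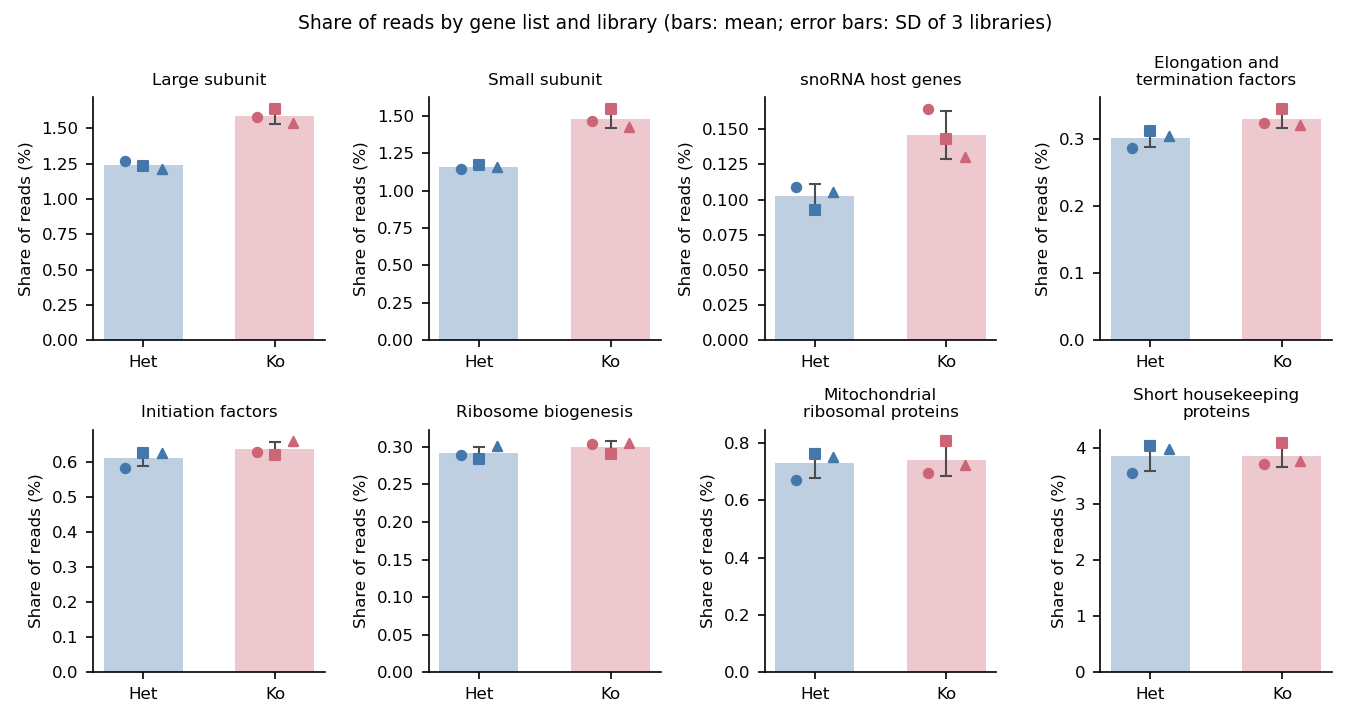
Share of reads (%) taken by each gene list in the 3 Het and 3 Ko libraries, with bars for the mean, error bars for the SD and one point per library (circle, square and triangle for the columns numbered 1, 2 and 3). Both subunits lay higher in every Ko library than in any Het library, as did snoRNA host genes and elongation and termination factors. Initiation factors, ribosome biogenesis, mitochondrial ribosomal proteins and short housekeeping proteins overlapped.

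The balance between the subunits was alike in both groups. Reads of the large subunit over reads of the small subunit came to 1.10, 1.05 and 1.05 in Het and to 1.08, 1.06 and 1.08 in Ko, so the ranges overlapped. The mean log2 level of the large subunit minus that of the small subunit was -0.15, -0.18 and -0.20 in Het and -0.19, -0.19 and -0.14 in Ko. The group means differed by 0.0047 on the log2 scale, less than the SD of 0.03 within groups. Both subunits had a median log2 fold change of 0.34.

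Single genes were compared with limma on log2(normalized count + 1), fitted over all 19416 genes tested and adjusted over all of them by the Benjamini-Hochberg method at 0.05. No ribosomal protein gene passed, in either direction, and 33 had an unadjusted p under 0.05, all higher in Ko. Over all genes tested, 0.288% were called higher in Ko and 0.525% lower, and 5.62% were higher at an unadjusted p under 0.05 (12% of the 3269 genes with a mean of at least 1000 normalized counts). Rpl32 had an adjusted p of 0.101 in limma. DESeq2 on reads recovered from the values called 4 members higher, Rpl32, Rpl37 and Rps14 among them, beside 1.91% of all genes. edgeR's quasi-likelihood test on the same reads called none, with 36 members at an unadjusted p under 0.05 and 0.124% of all genes called higher. limma's voom on those reads also called none, with 46 members at an unadjusted p under 0.05 and 0.103% of all genes called higher. The authors' deposited table had 15 members higher at an adjusted p under 0.05 and none lower, beside 3.03% of the 19746 genes with an adjusted p there. Among them were Rpl37, Rpl27a, Rpl32, Rps4x, Rps18 and Rpl13. Whether a single member is called thus depended on the test.

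The direction was shared across the family. All 77 members tested had a positive log2 fold change, Ko over Het, against 47.2% of all genes tested and 55.9% of the 3269 genes with a mean of at least 1000 normalized counts. The median was 0.34 over the members, a fold of 1.27. It was -0.05 over all genes tested and 0.05 over those with a mean of at least 1000. In 59 of the 77 the lowest Ko library lay above the highest Het library, against 8.57% of all genes tested and 16.1% of those with a mean of at least 1000. Among the 70 members of that level, 55 did not overlap. No member lay wholly lower in Ko, against 9.86% of all genes tested. By subunit, 32 of 44 large and 27 of 33 small subunit genes did not overlap between the groups. Genes of 1 family are not independent of each other within a library, so these counts describe 6 libraries and not 77 separate observations.

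**Figure D2:**
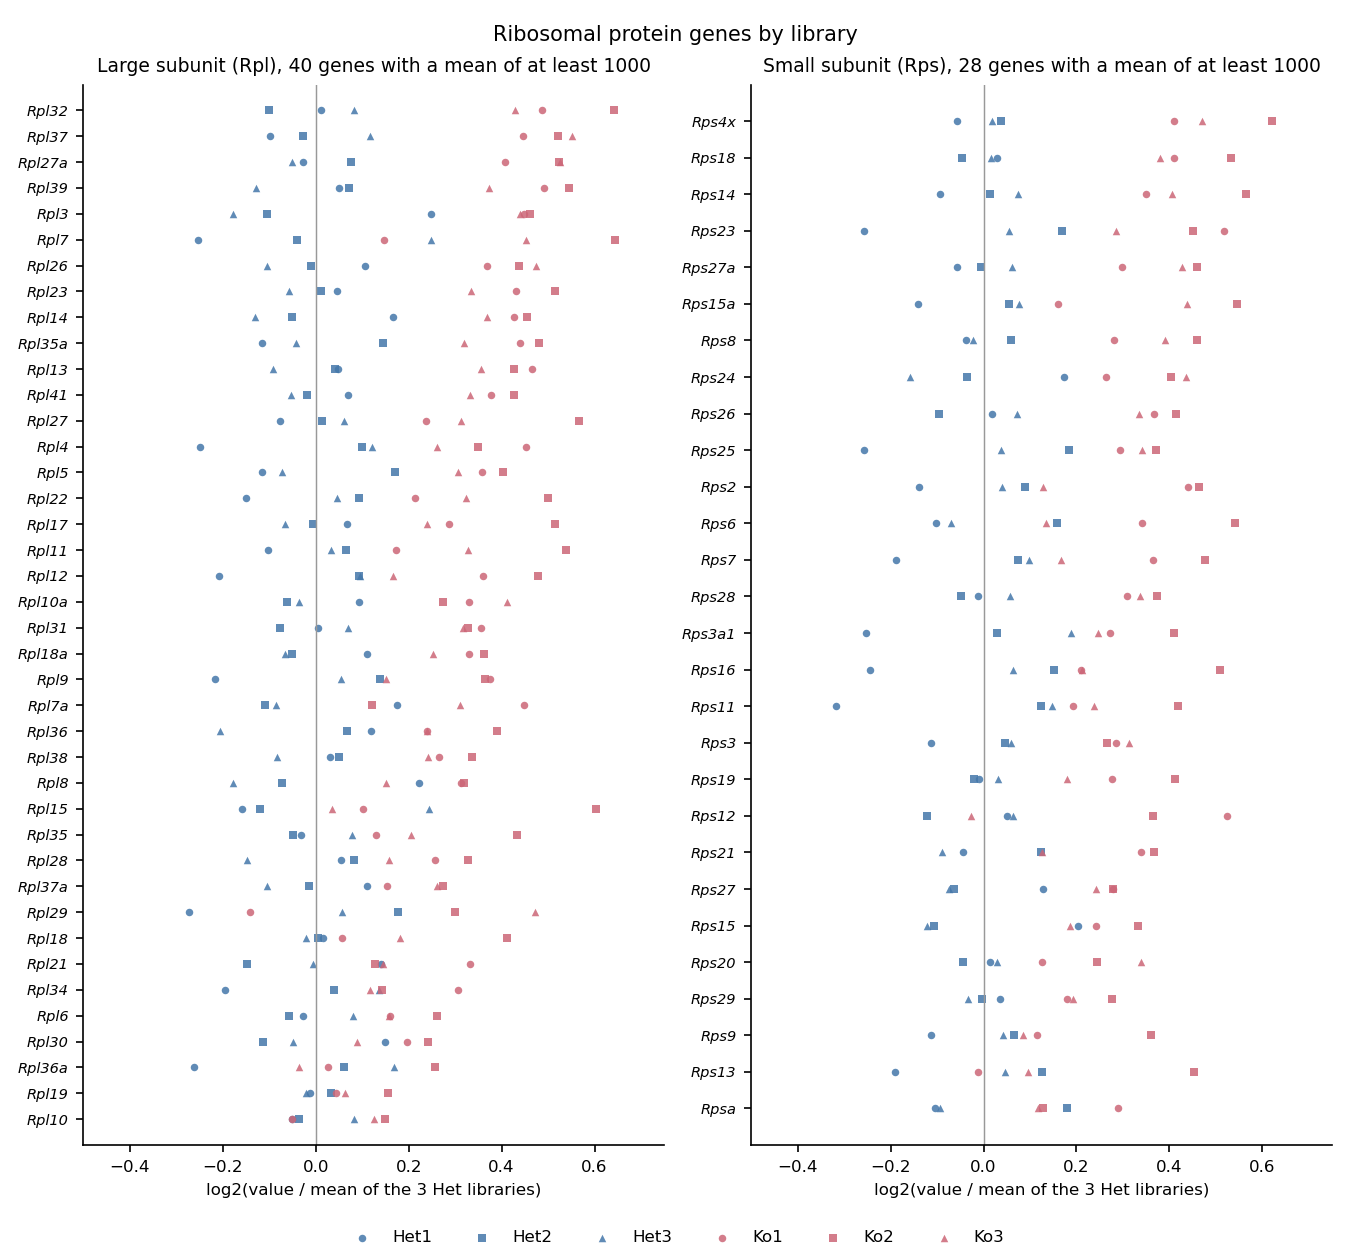
Log2 ratio of each library's normalized count to the mean of the 3 Het libraries, for 40 large and 28 small subunit genes with a mean of at least 1000, ordered by fold change (blue Het, red Ko). Ko points lie to the right of Het points for most genes, and Ko2 is most often the farthest right.

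A single library stood out among the Ko libraries. The highest value was in a Ko library for all 77 members tested, in Ko2 for 53 of them, in Ko1 for 13 and in Ko3 for 11. The lowest value was in a Het library for 76, in Het1 for 33, Het3 for 27 and Het2 for 16. The exception was Rpl10, whose lowest value was in Ko1. With Ko2 left out the median log2 fold change of the members was 0.29, with 0 members called by limma. Over the same 77 members, the lowest and highest medians with any 1 library left out were 0.29 and 0.37. Fibroblast and endothelium markers were also highest in Ko2, at 0.0746% of reads against 0.0147 to 0.0286% in the other libraries. Of these 10 markers none was at 0 in any library, 5 were above 0 in fold change, and Dcn stood at 9169 in Ko2 and at 651 to 2107 in the others. Their part in the ribosomal protein values was not tested beyond leaving Ko2 out.

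The fold changes were spread narrowly. Among the 70 members with a mean of at least 1000, they had an SD of 0.10 between genes. The median standard error of a single gene's log2 fold change was 0.15. The spread between these genes was thus no larger than the error of 1 of them, and the order of the genes below is a description. For comparison, the 3269 genes of that level had an SD of 0.73. Across the 70 genes, the log2 fold change had a Pearson r of 0.10 with the log2 mean level, 0.01 with coding length and 0.07 with transcript length, all from the same 6 libraries.

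**Figure D3:**
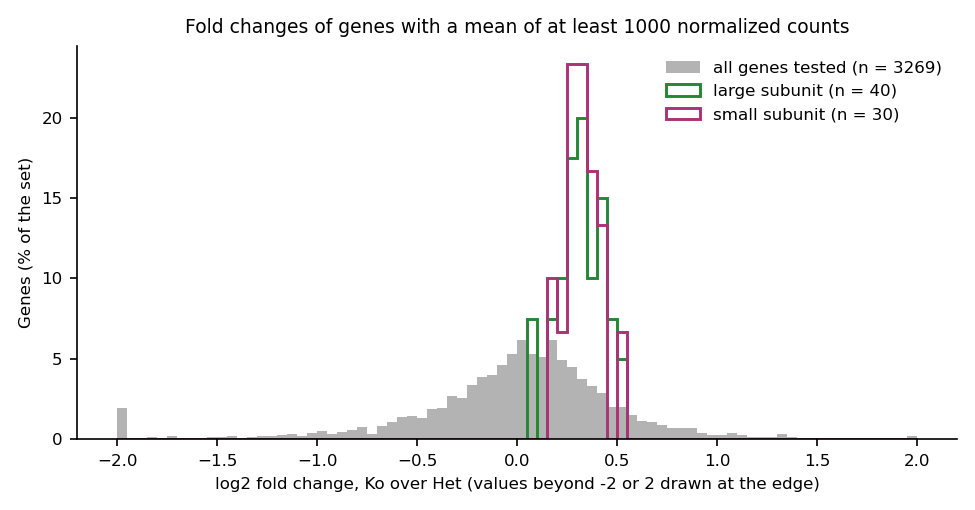
Distribution of log2 fold changes, Ko over Het, for genes with a mean of at least 1000 normalized counts: all 3269 tested (grey), 40 large subunit genes (green) and 30 small subunit genes (purple), as a percentage of each set. Both subunits occupy one narrow band above 0, around their medians of 0.34.

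Among the small subunit genes with the largest fold changes were Rps4x, Rps18 and Rps14. Rps4x, the X-linked form of the eS4 protein, stood at 2645, 2823 and 2789 in Het and at 3657, 4234 and 3813 in Ko. Its groups did not overlap, with a log2 fold change of 0.50 ± 0.16 (SE, here and below) and an adjusted p of 0.200 in limma. Rps18, in the head of the subunit, stood at 5970, 5667 and 5914 in Het and at 7777, 8469 and 7613 in Ko, again without overlap (log2 fold change 0.44 ± 0.13). Rps14, a platform protein encoded in the region lost in human 5q- syndrome, was among the most abundant members. It stood at 16821, 18101 and 18894 in Het and at 22864, 26537 and 23746 in Ko. Its log2 fold change was 0.44 ± 0.11, with an adjusted p of 0.112 in limma and 0.0364 in DESeq2.

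Other small subunit proteins with known roles had log2 fold changes of 0.27 to 0.40. Rps6, the substrate of the S6 kinases, stood at 3282, 3930 and 3356 in Het and at 4462, 5128 and 3869 in Ko. The lowest Ko value of Rps6 lay within the Het range, and its log2 fold change was 0.34 ± 0.17. Rps3, at the mRNA entry channel, stood at 9352, 10449 and 10547 in Het and at 12319, 12158 and 12572 in Ko, with no overlap and a log2 fold change of 0.29 ± 0.12. Rps19, mutated in Diamond-Blackfan anaemia, had a log2 fold change of 0.29 ± 0.12, and Rps27a, made as a fusion with ubiquitin, had 0.40 ± 0.13. Both genes were without overlap. Rps3a1 had 0.32 ± 0.15 and Rps27 had 0.27 ± 0.11, also without overlap.

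The smallest fold changes of the small subunit were those of Rpsa (the laminin receptor precursor protein, 0.18 ± 0.15), Rps13 (0.19 ± 0.17), Rps9 (0.19 ± 0.13), Rps29 (0.22 ± 0.11) and Rps20 (0.24 ± 0.13). Rpsa stood at 4384, 5331 and 4415 in Het and at 5756, 5148 and 5112 in Ko, with Het2 above 2 of the Ko libraries. Rps13 also overlapped, while Rps9, Rps29 and Rps20 did not.

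In the large subunit, Rpl32, Rpl37 and Rpl27a had the largest fold changes among genes with a mean of at least 1000. Rpl32 stood at 9042, 8363 and 9495 in Het and at 12569, 13993 and 12074 in Ko. Its groups did not overlap, with a log2 fold change of 0.52 ± 0.13 and an adjusted p of 0.101 in limma. Rpl37 stood at 6356, 6670 and 7380 in Het and at 9264, 9757 and 9970 in Ko, with 0.51 ± 0.13 and an adjusted p of 0.115. Rpl27a, whose start carries the longest tract of those printed, stood at 2196, 2361 and 2163 in Het and at 2972, 3218 and 3223 in Ko. Its log2 fold change was 0.49 ± 0.17 and its groups did not overlap.

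Rpl5 and Rpl11 form, with 5S ribosomal RNA, the particle that binds Mdm2 when ribosome assembly is disturbed. Rpl5 stood at 1778, 2171 and 1834 in Het and at 2471, 2551 and 2382 in Ko, and Rpl11 at 4749, 5336 and 5215 in Het and 5748, 7409 and 6404 in Ko. Neither overlapped between the groups, with log2 fold changes of 0.36 ± 0.18 and 0.35 ± 0.15. Rpl3, next to the peptidyl transferase centre, stood at 3811, 2985 and 2837 in Het. In Ko it stood at 4383, 4421 and 4356, with a log2 fold change of 0.46 ± 0.17. Rpl22, which has a role in the development of T cells, had 0.35 ± 0.17. Rpl39, a small protein of the exit tunnel, had 0.47 ± 0.16, and Rpl10a had 0.34 ± 0.17. Rpl38, linked to the translation of Hox mRNAs, had 0.28 ± 0.12 and Rpl41, the shortest member, had 0.38 ± 0.11. These 5 genes did not overlap between the groups.

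The smallest fold changes of the family were in the large subunit. Rpl10, which joins the subunit late in its assembly, near the peptidyl transferase centre, stood at 5602, 5662 and 6142 in Het and at 5601, 6430 and 6328 in Ko. Its groups overlapped, with a log2 fold change of 0.08 ± 0.14. Rpl19 stood at 4620, 4772 and 4596 in Het and at 4804, 5195 and 4870 in Ko. Every Ko value of Rpl19 was above every Het value, but the log2 fold change was 0.09 ± 0.14. Rpl36a stood at 1995, 2498 and 2689 in Het and at 2439, 2859 and 2336 in Ko, and Rpl13a at 331, 459 and 271 in Het and 488, 309 and 364 in Ko. Both overlapped, with log2 fold changes of 0.09 ± 0.19 and 0.14 ± 0.38. The value of Rpl36a was -0.032 without Het1, and that of Rpl13a was -0.042 without Ko1 and -0.036 without Het3. Rpl30 had 0.18 ± 0.17, with overlap.

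The other 37 members tested, named by no rule, had means of 2838 to 11717 normalized counts and log2 fold changes of 0.19 to 0.43, with a median of 0.34. Of these, 28 did not overlap between the groups, 16 of 23 in the large and 12 of 14 in the small subunit. The 9 that overlapped were Rpl7, Rpl7a, Rpl8, Rpl15, Rpl21, Rpl29, Rpl34, Rps12 and Rps15. Rpl15, whose start is printed above, stood at 2419, 2485 and 3202 in Het and at 2900, 4106 and 2769 in Ko. Its log2 fold change was 0.26 ± 0.21, with Het3 above Ko1 and Ko3. Rpl13, which the authors' deposited table called and limma did not, stood at 9527, 9484 and 8644 in Het and at 12721, 12390 and 11789 in Ko. Its groups did not overlap, and the log2 fold change was 0.42 ± 0.12, with an adjusted p of 0.155 in limma.

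Rpl24 had the largest value of the members tested, 1.36 ± 0.85, at a very low level. It stood at 31.9, 35.5 and 21.6 normalized counts in Het and at 54.5, 74.6 and 109 in Ko, which is 122 and 201 reads over each group. Its groups did not overlap, and its adjusted p in limma was 0.540. Its level per kilobase of coding sequence, 116, was the lowest of the protein-coding members. Of its exon bases in the GENCODE M21 annotation, 47.0% overlap the gene Gm28037 on the same strand. How the authors' counter treated reads shared by overlapping genes is not given in the sources used here, and Gm28037 itself was at 0 in all 6 libraries. Rps10 (80.2 normalized counts on average, 28.7% of exon bases shared with other genes, among them RPS10-NUDT3 on the same strand) and Rpl13a (370 on average, 35.4%, Gm45713) were low in the same way. Both of those neighbours were at 0 in every library. The levels of Rpl24, Rps10 and Rpl13a are therefore uncertain. Rpl23a, at 699 on average, shares 62.3% of its exon bases, most with Tlcd1 on the opposite strand.

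Levels were compared between genes only per kilobase of coding sequence, a scale that raises the shortest genes. On the mean of the 6 libraries, Rpl41 led the large subunit at 248061 normalized counts per kilobase, with a coding length of 75 bases. Rpl37a (44450), Rpl38 (41738), Rpl36 (33190) and Rpl37 (28291) followed. In the small subunit Rps29 (85172) was ahead of Rps27 (59962), Rps14 (46712), Rps19 (32112) and Rps21 (27214). The lowest after the overlapping genes were Rps27rt (514) and Rps4x (4216) in the small subunit. The log2 fold changes of these abundant genes lay between 0.22 for Rps29 and 0.51 for Rpl37.

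The copies had positive values like the genes they resemble, but counting can split reads between near-identical sequences. Rpl37rt stood at 502, 501 and 514 in Het and at 674, 734 and 753 in Ko, a log2 fold change of 0.51 ± 0.27 beside 0.51 for Rpl37. Rps3a2 had 0.49 ± 0.59 beside 0.32 for Rps3a1, and Rps27rt had 0.45 ± 0.55 beside 0.27 for Rps27. Rps3a3, with a mean of 9.81, was not tested. These values are uncertain for that reason, and without the 4 copies the median of the 74 remaining members was 0.34. The 298 pseudogenes with -ps in their symbol held 0.0157 to 0.0172% of reads in Het and 0.0193 to 0.0214% in Ko.

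Ribosomal proteins outside the symbol rule stood lower in fold change than most members. The P-stalk recruits elongation factors to the large subunit. Rplp0, its base, stood at 7328, 7976 and 7579 in Het and at 7465, 7212 and 8527 in Ko, with a log2 fold change of 0.02 ± 0.13. Its groups overlapped, and the value was -0.055 without Ko3 and -0.011 without Het1. Rplp1 had 0.15 ± 0.12 with overlap, and Rplp2 had 0.21 ± 0.12 without overlap. Fau, which encodes eS30, stood at 8744, 8374 and 8256 in Het and at 9452, 9074 and 9003 in Ko, without overlap, at 0.12 ± 0.12. Rack1, a receptor for kinases on the small subunit, had 0.25 ± 0.13, without overlap. None of these 5 was called by limma, and the difference between them and the members was not tested.

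Among the paralogs ending in l, Rpl22l1 stood at 1554, 1712 and 1871 in Het and at 1986, 2607 and 2227 in Ko, without overlap, at 0.40 ± 0.20. Rpl36al had 0.21 ± 0.25, without overlap. Rps27l, which p53 is known to induce, stood at 11652, 12976 and 14016 in Het and at 12834, 15436 and 12581 in Ko, with overlap, at 0.08 ± 0.13 and at -0.016 without Ko2. Rpl7l1 had -0.41 ± 0.42, and 0.14 without Ko1, and Rps4l, annotated as a transcribed pseudogene, had -0.38 ± 0.21. Rpl3l, Rpl10l and Rpl39l were under the level for testing.

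Genes whose products work with the ribosome were read from lists, none of which held a gene called by limma. Translation initiation factors had a median log2 fold change of 0.02 (39 tested), with 21 above 0, and their shares of reads overlapped between the groups. Elongation and termination factors had a median of 0.11 (15 tested), and held 0.286 to 0.311% of reads in Het and 0.320 to 0.344% in Ko, without overlap. In that list Tpt1, itself a TOP mRNA, stood at 7500, 7260 and 7408 in Het and at 9081, 8858 and 8610 in Ko, without overlap, at 0.26 ± 0.12. Eef2, which moves the ribosome along the mRNA, had 0.23 ± 0.13, also without overlap. Eif6, which keeps free large subunits from joining small ones, had -0.57 ± 0.25 with overlap.

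Assembly factors did not share the direction of the ribosomal proteins in their counts. Of 66 ribosome biogenesis genes 32 were above 0, with a median of -0.03. Efl1, the GTPase that releases Eif6, stood at 406, 493 and 759 in Het and at 248, 225 and 315 in Ko, at -1.04 ± 0.38 with an adjusted p of 0.271 in limma. RNA polymerase I and its factors had a median of -0.11 (13 tested), and ribosome quality control genes -0.10 (20 tested). The mTOR and S6 kinase list, which includes regulators of TOP mRNAs, had a median of 0.10 (26 tested), and held 0.182 to 0.193% of reads in Het and 0.196 to 0.214% in Ko. In it Deptor, an inhibitor that binds mTOR, stood at 950, 763 and 631 in Het and at 424, 290 and 215 in Ko, without overlap. Its log2 fold change was -1.37 ± 0.36, with an adjusted p of 0.131 in limma. Tsc1, of the complex that restrains mTOR, had 1.07 ± 0.43 in limma, with an adjusted p of 0.308.

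Host genes of snoRNAs stood highest among the lists. Their introns carry snoRNAs and many of their spliced RNAs are, like ribosomal protein mRNAs, of the TOP class. The 14 tested had a median of 0.41, with 11 of them above 0, against 47.2% of all genes tested. In 4 the groups did not overlap, with Ko higher, against 8.57% of all genes tested and 16.1% of those with a mean of at least 1000. In limma 3 were higher at an unadjusted p under 0.05, against 5.62% and 12% of the same sets. Gas5 stood at 7446, 5872 and 7382 in Het and at 13290, 11403 and 8818 in Ko, at 0.68 ± 0.18. Snhg18 had 0.90 ± 0.22, with an adjusted p of 0.100 in limma, Zfas1 0.61 ± 0.21 and Epb41l4aos 0.82 ± 0.39, all without overlap. The list took 0.0926 to 0.109% of reads in Het and 0.130 to 0.164% in Ko.

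**Figure D4:**
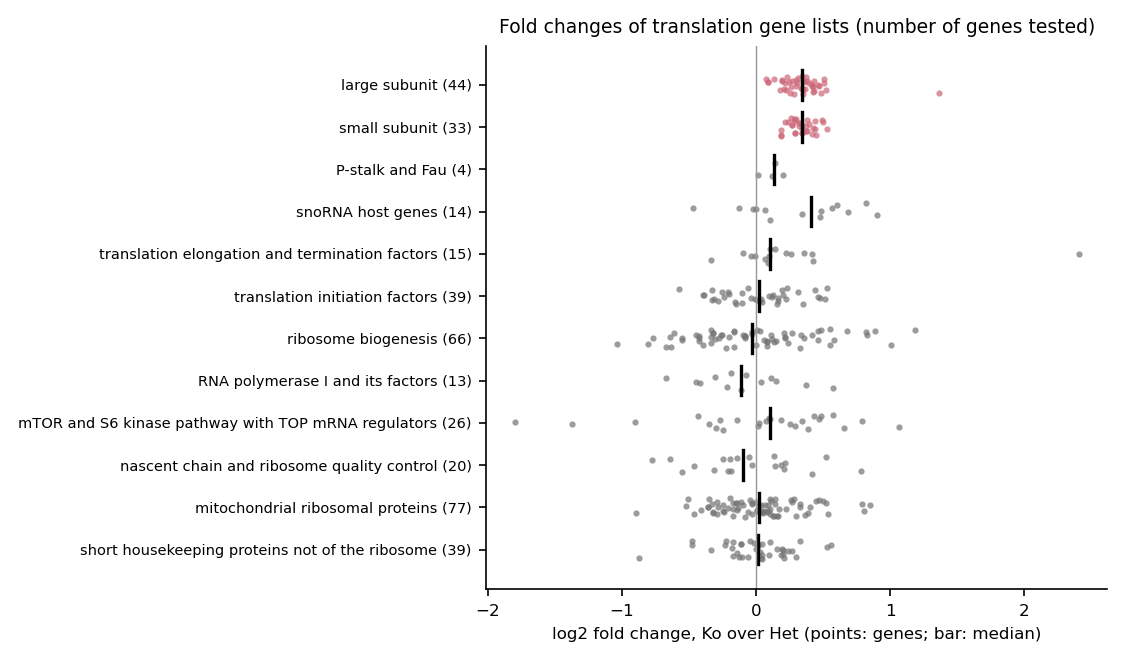
Log2 fold change, Ko over Het, of each gene tested in the ribosomal protein subunits and in other lists of translation genes (points), with the median of each list as a bar. The subunits form a narrow band with medians of 0.34, and the P-stalk genes and Fau lie between 0.02 and 0.21. The other lists scatter on both sides of 0, with a median of 0.41 for the snoRNA host genes.

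Lists outside the cytosolic ribosome give a further comparison. The 77 mitochondrial ribosomal protein genes tested had a median of 0.02 with 42 above 0, and held 0.672 to 0.763% of reads in Het and 0.694 to 0.807% in Ko. The list of short housekeeping genes that are not ribosomal had a median of 0.02 (39 tested) with 22 above 0. These genes were not matched to the members by length, and Actb among them has a transcript of 1920 bases. They held 3.56 to 4.05% of reads in Het and 3.73 to 4.10% in Ko. A higher share in Ko was thus seen for the cytosolic ribosomal proteins and not in the means of these 2 lists beyond their spread. It was not particular to ribosomal proteins. The 20 tuft markers had a median log2 fold change of 0.33, with 17 above 0, near the members' 0.34. Their share of reads did not overlap between the groups either, with a ratio of 1.32 against 1.28 for the members. Whether these shifts are related was not tested.

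Other measures of the libraries were set beside the share of ribosomal protein reads. Mitochondrially encoded genes took 8.66 to 11.1% of reads in Het and 10.4 to 12.1% in Ko, with overlap. With them left out of the total, the ribosomal protein share was 2.60 to 2.71% in Het and 3.34 to 3.55% in Ko. The 20 genes with the most reads took 16.7 to 18.0% in Het and 16.6 to 17.9% in Ko. Markers of the Aire stage and other medullary epithelium took 0.418 to 0.590% in Het and 0.361 to 0.389% in Ko, and 5 of the 14 tested were above 0 in fold change. This sum hides larger differences of single genes. Ubd had means of 28171 in Het and 5494 in Ko, Ctsz 3506 and 833, and Aire 1113 and 197, the last with overlap. Epcam had 16358 and 17119, and Krt5 5562 and 8323. Myeloid and dendritic markers took 0.0273 to 0.309% in Het, highest in Het1, and 0.00811 to 0.0178% in Ko, and 1 of the 8 tested was above 0. B cell markers took 0.0226 to 0.0314% in Het and 0.0320 to 0.0376% in Ko, with 4 of the 8 tested above 0. Red blood cell markers took up to 0.0548% in Het, in Het3, and at most 8.35e-05% in Ko. T cell markers took 0.00189 to 0.00540% in Het and 0.00440 to 0.00861% in Ko, with overlap, and fibroblast and endothelium markers 0.0147 to 0.0235% in Het and 0.0162 to 0.0746% in Ko, with overlap. No marker was at 0 in all 6 libraries, 17 of the 20 tuft markers were above 0 in fold change, and the part of these cell types in the ribosomal protein values was not tested. Without Het1 the median log2 fold change of the members was 0.31, and without Het3 it was 0.36.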

How the data were processed

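RNA of 6 thymic tuft cell samples was analysed, 3 per genotype. The authors deposited normalized counts, a signal in which each library's gene counts were scaled by 1 size factor, and a comparison table. That table gives, per the file headers, each gene's log2 fold change with its error, the test score and the p-value before and after adjustment. Per the submitters' processing notes, STAR 2.7.9a, GRCm39 and DESeq2 were used. Which program counted the reads, on which annotation and strand, is not given in the sources used here.

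Symbols matched 55144 of 55471 identifiers, and 19390 of the 19416 tested. Lengths, biotypes and exon overlaps came from GENCODE M21 (GRCm38), not the authors' GRCm39. Start sequences are RefSeq's (GRCm38.p6).

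Genes with a mean of at least 10 normalized counts were tested by limma 3.58.1 (R 4.3.3) on log2(value + 1), with lmFit and trended eBayes, two-sided, and no term but genotype. That scale understates changes of low genes. An exact permutation test of 3 against 3 libraries cannot go below 0.10, so none was made. Dividing each column by the value of 1 read gave whole reads, within 0.01 reads, for 100% of values. On these reads edgeR 4.0.16 called 24 genes higher in Ko and 51 lower, and DESeq2 1.42.0 called 371 and 747. In each of the 6 pairs of libraries of 1 group, reads differed beyond sampling noise, with a chi-square over its degrees of freedom of 56.9 to 134. Shares are reads of a list over all reads.

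The members and lists were chosen with earlier results of these data known. Genes were named by a rule: those called, the 5 largest and 5 smallest fold changes of each subunit among means of at least 50, the 5 highest and 3 lowest per coding length, 19 genes by role, the relatives, and up to 4 per other list by smallest p. Rpl15, whose start is printed, and Rpl13 were added after their values were seen. Same-numbered columns did not deviate together (r = 0.02, 0.02 and -0.02), so the numbers were not taken to pair samples. Alternatives covered the pseudocount, filter, scaling, test, weights, block, members and each library left out. The limma script was tested on simulated data. Values of some genes are not reported here.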

Additional observations from a re-analysis of the deposited data

How the results depend on the processing

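With each library left out in turn, the members' median log2 fold change was 0.29 to 0.36, lowest without Ko2, over the members that passed the filter each time. Without Het2 or Het3 these were 78, with Rps3a3. Over the same 77 the highest was 0.37, without Het2. The number called by limma was 0 in each direction, and the members with a positive value numbered 76 to 78. The members wholly higher in Ko numbered 61 to 66. Groups that do not overlap stay apart when 1 library is left out, so this count cannot fall for the same members. It therefore says nothing on the dependence on a single library, and the matching share over all genes was not computed. The large minus small median was -0.03 to 0.01, and the difference in the share of reads 0.606 to 0.719 percentage points. That difference was 0.666 points over all reads and 0.792 points with mitochondrially encoded genes left out of the total. DESeq2 called 4 members higher. Over all other settings no member was called. With the replicate block by column number 0 members were called, with 25 genes of the whole table higher and 62 lower, against 56 and 102 without it. The numbers do not pair the samples, and the block changed no other call of a member. Without Het3 limma called 0 genes of the whole table, with 25 members at an unadjusted p under 0.05, without Het2 9 higher and 5 lower, without Ko1 22 and 94, without Ko2 10 and 46, without Ko3 9 and 41, and without Het1 47 and 59. voom called 20 and 20. Robust variance estimation called 89 and 150. Fold changes turned sign, with 1 library left out, for Rpl36a (-0.032 without Het1, range to 0.18), Rpl13a (-0.042 without Ko1, -0.036 without Het3, range to 0.34), Rplp0 (-0.055 without Ko3, -0.011 without Het1, range to 0.066), Rpl7l1 (0.14 without Ko1, range from -0.71) and Rps27l (-0.016 without Ko2, range to 0.14). The cause was not tested. Quantile normalization moved the median of all genes by 0.13, to 0.08, with the members at 0.35. The exclusion of the 4 copies and the list of mitochondrial ribosomal proteins were chosen after seeing the data.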
